A study of Oryctolagus cuniculus with 134 samples.

Results

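Heart muscle genes were followed through the aorta and the 4 heart valves of rabbits on fat-enriched diets. Of the 29587 genes in the count table, 7 were described: MB, CKM, FABP3, NPPA, TNNC1, ACTN2 and MYH7. They are genes of the working heart muscle cell, and they were chosen by measured values: their library-scaled counts in these same libraries were known to vary across the 5 tissues and 4 treatments and to be lower in the aortic valve of treated rabbits. Values in the aortic valve are therefore given as a description: how many genes met the call rule there is printed beside the share of all genes that did, and nothing is read from it. The levels in the other tissues were known as well when the genes were chosen, so the tests there are not independent of the choice, and their p-values say only how a difference stood against the spread between libraries.

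A heart muscle cell contracts through the sarcomere, in which myosin filaments pull on actin filaments when calcium binds the troponin complex. MYH7 (ENSOCUG00000011037) encodes the slow beta myosin heavy chain of the ventricle and of slow skeletal muscle, TNNC1 (ENSOCUG00000007983) the calcium-binding troponin C of heart and slow muscle, and ACTN2 (ENSOCUG00000017871) the alpha-actinin that anchors actin in the Z-disc. CKM (ENSOCUG00000027154) encodes muscle creatine kinase, which buffers ATP, MB (ENSOCUG00000026126) the oxygen-binding myoglobin, and FABP3 (ENSOCUG00000014608) the heart-type fatty acid binding protein. NPPA (ENSOCUG00000007311) encodes atrial natriuretic peptide, a hormone that the atria secrete when they are stretched. Heart valves are thin leaflets of matrix and interstitial cells that insert on the heart wall: the mitral (MV) and tricuspid (TV) valves lie between atrium and ventricle, and the aortic (AoV) and pulmonary (PV) valves lie at the ventricular outlets. The aorta (Ao) wall is built of smooth muscle, whose contractile genes are largely different ones. MYH7 shares long stretches of sequence with the alpha myosin heavy chain gene, so its counts may include reads of that gene.

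The libraries were made from total RNA of an aorta ring and the dissected valves of 27 rabbits. All rabbits were 12 weeks old at the start and were followed for 16 weeks. Ctrl rabbits received standard chow and no vitamin D2. The other 3 groups all received vitamin D2, 25000 U per day scaled to body weight for 15 days, on top of a diet with 0.3% cholesterol (CHT), with 5% lard (Lard), or with 0.3% cholesterol combined after 8 weeks with cardiac irradiation of 24 Gy in 3 fractions of 8 Gy, aimed at the aortic valve and thoracic aorta (IR/CHT), so that diet and vitamin D2 cannot be told apart in any comparison with Ctrl. Each tissue and treatment had 7 libraries, except CHT with 6 in every tissue and MV Ctrl with 6. The libraries held 13564979 to 50577676 counts (median 18235577), and 1 count in the smallest library was 0.0779 CPM, the unit of level used here (a count relative to the scaled size of its library). Every Ao library, and no AoV or MV library of the CHT group, was on plate 2 of the 2 library plates.

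On genes that do not follow the 7 genes (a correlation smaller than 0.2 in size), 122 libraries were nearest to the other libraries of their own tissue and 12 were nearest to another tissue. Of these 12, 2 were the PV and TV libraries of rabbit L09686 of the Lard group, each nearest to the other valve. On a score of 100 genes that separate TV (positive) from PV (negative), in log2 CPM, the library labelled PV of this rabbit was at 0.74 and the library labelled TV at -0.61. In the other 26 rabbits the PV libraries lay between -1.18 and -0.463 and the TV libraries between 0.417 and 1.33. The Lard comparisons of PV and TV and the relations between genes within these valves are given with and without this pair. The library labelled TV Ctrl replicate L168 was nearest to MV. Its mean squared distance, in units of the variance within tissues, was 1.69 from MV, 1.83 from AoV and 5.45 from TV. Mitochondrial genes took 0.0373% of its counts, against a TV Ctrl median of 0.850%, and its rabbit, L08256, had no library labelled MV. The other 9 were nearest to another valve. TV L172 (CHT), L197 and L276 (IR/CHT) and AoV L228 (CHT) and L248 (Lard) were nearest to MV. MV L157 (CHT), L179 and L195 (IR/CHT) and PV L275 (IR/CHT) were nearest to AoV. No fit left all 9 out.

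**Figure D1:**
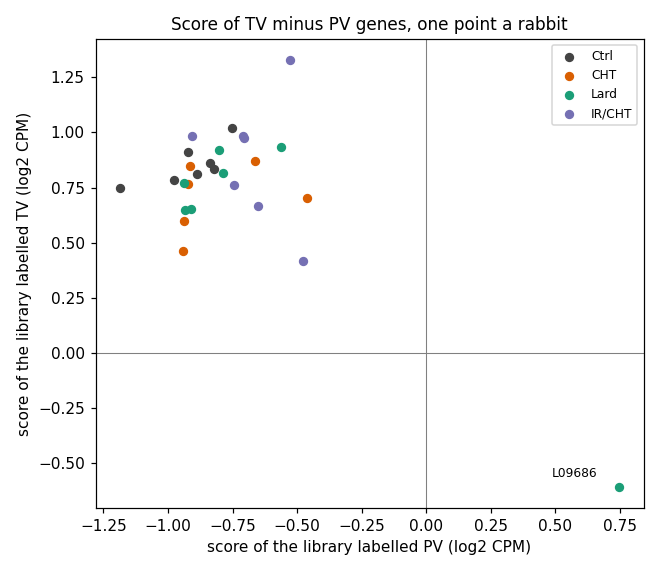
Score of genes that separate the tricuspid (TV) from the pulmonary (PV) valve, in log2 CPM, for the library labelled PV (horizontal axis) and the library labelled TV (vertical axis) of each of 27 rabbits, coloured by treatment. Rabbit L09686 lies at 0.74 and -0.61, with the signs opposite to those of the other 26 rabbits.

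In untreated rabbits TV had the highest median of each of the 7 genes, and Ao the lowest of MYH7, ACTN2, MB and FABP3. MYH7 spanned 1.84 to 33.8 CPM in Ao (median 8.51), 17.6 to 4332 in PV (median 147), 105 to 1460 in MV (median 608), 113 to 10012 in AoV (median 619) and 390 to 29861 in TV (median 6348). The 6 TV libraries other than L168 were at 5210 CPM or more, while PV split into 5 libraries up to 243.7 CPM and 2 libraries at 3416 and 4332 CPM. In a whole piece of tissue, fewer muscle cells and less RNA per muscle cell cannot be told apart.

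Against Ao, all 7 genes were higher in TV Ctrl by edgeR's quasi-likelihood test (called at an adjusted p under 0.05 and a fold above 1.5), where 18.5% of all 15372 genes tested were called higher and 30.2% in either direction. MYH7 differed by a log2 fold change of 9.41 (SE 1.502, adjusted p 5.5e-06), NPPA by 8.07 (SE 1.11), MB by 7.92 (SE 1.25), ACTN2 by 6.45 (SE 0.99) and FABP3 by 5.36 (SE 0.75). CKM and TNNC1 differed least, by 2.84 (SE 0.88) and 2.63 (SE 0.83), and their aortic levels were not low: TNNC1 in Ao Ctrl was 47.4 to 143 CPM (median 80.1) and CKM 9.19 to 55.1 CPM (median 38.7). All 7 were also called without L168. On plate 2 alone, with 7 Ao and 2 TV libraries, of which L168 was 1, 5 were called, and CKM at 1.67 and TNNC1 at 1.81 were not.

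MV and PV were set against Ao in the same way. MV exceeded Ao for 5 of the 7 genes (18.5% of all genes higher, 31.0% in either direction): NPPA by 5.80 (SE 1.06), MYH7 by 5.61 (SE 1.29), MB by 4.46 (SE 1.13), ACTN2 by 2.71 (SE 0.85) and FABP3 by 2.53 (SE 0.69). PV exceeded Ao for 4 genes (16.9% of all genes higher, 37.5% in either direction), MYH7 by 6.40 (SE 1.32), MB by 4.77 (SE 1.12), ACTN2 by 2.98 (SE 0.85) and FABP3 by 1.95 (SE 0.67). The FABP3 difference rested on few libraries: it was 1.45 and not called with the rabbit as a block, and 1.53 and 1.23, not called, without PV Ctrl replicate L200 or L263. On plate 2 alone the PV differences were 3.40 for MYH7, called, and 2.45 for MB, 0.87 for ACTN2 and -0.12 for FABP3, not called, and the 5 MV calls were made there too. CKM and TNNC1 passed in neither valve: in MV they differed from Ao by 0.11 (SE 0.86) and -0.65 (SE 0.82), and in PV by -0.99 (SE 0.83) and -0.88 (SE 0.79). Their Ctrl medians in PV, 2.37 CPM for CKM and 7.71 CPM for TNNC1, lay below those of Ao.

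TV exceeded PV for 6 of the 7 genes, where 8.91% of all genes were called higher and 10.7% in either direction. MYH7 was the exception in edgeR, at 3.02 (SE 1.13, adjusted p 0.0717), and DESeq2 called all 7. The TV group included L168, and with 1 library left out in turn the edgeR count ran from 5 to 7. On plate 2 alone, with 2 libraries of each valve (L168 among those of TV), none was called, with differences of 4.24 to 8.89 for the 6 genes. MB was called at 3.15 (SE 0.97, adjusted p 0.0278), but not without PV Ctrl replicate L167, L184, L153, L242 or L279 or TV Ctrl replicate L243, where it was 2.40 to 2.99. TV exceeded MV for 4 genes, MB, FABP3, TNNC1 and ACTN2, by 2.83 to 3.75 (3.95% of all genes higher, 5.33% in either direction). That count was 7 without the library labelled TV Ctrl L168, and 2 without MV Ctrl replicate L199, L156 or L241 or TV Ctrl replicate L243. In the order of Ctrl medians, MYH7 passed from Ao to PV, while the step from PV to MV, at -0.78 (SE 1.099), did not pass.

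**Figure D2:**
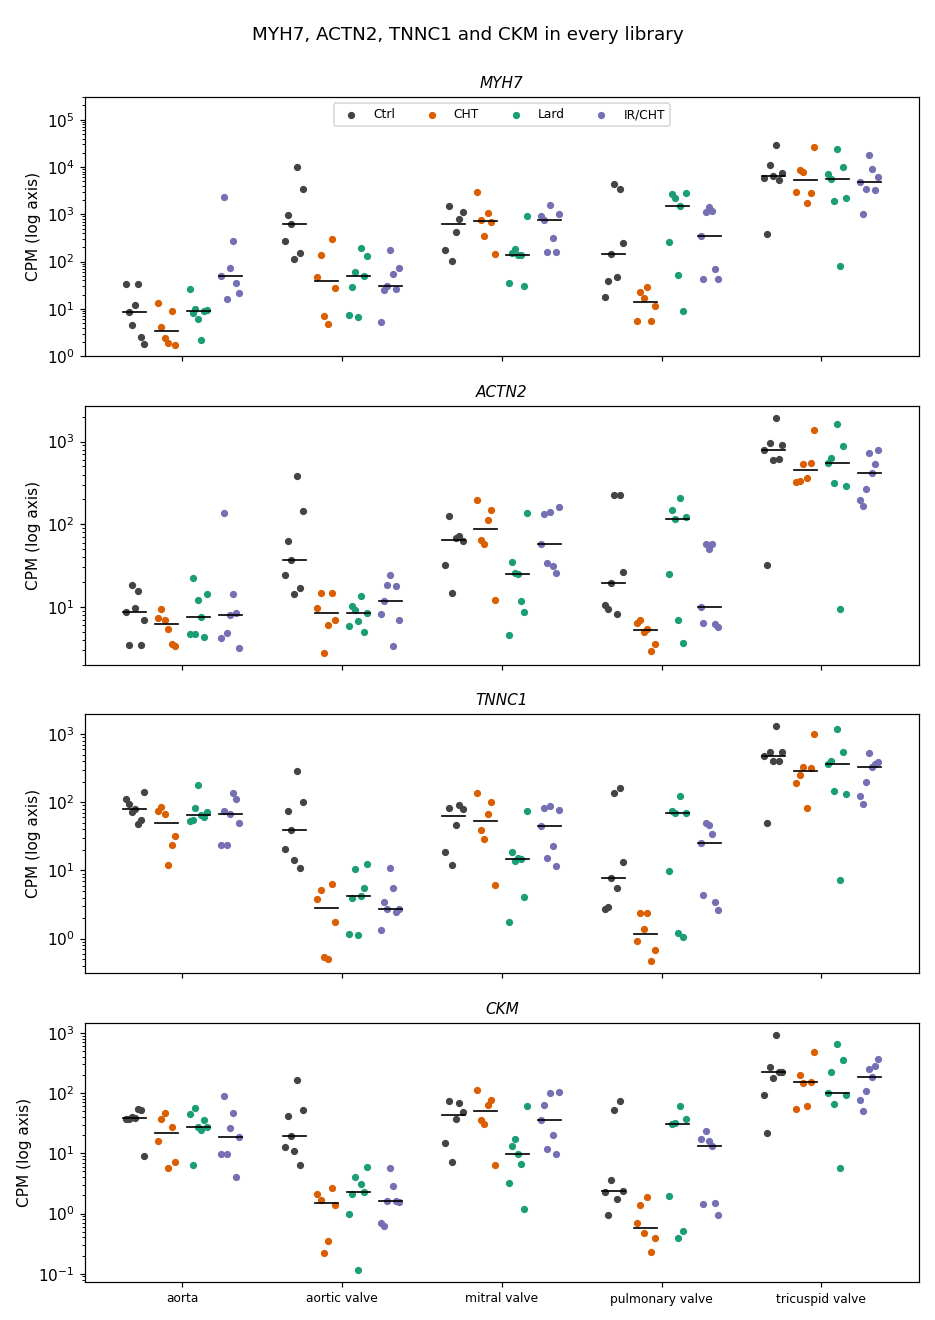
MYH7, ACTN2, TNNC1 and CKM in each library, in CPM on a log axis, by tissue and treatment. Each point is a library and each bar the median of its group. In Ctrl, MYH7 has a median of 8.51 CPM in aorta against 6348 CPM in tricuspid valve, and aortic TNNC1 a median of 80.1 CPM.

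NPPA was highest in the valves between atrium and ventricle. In Ctrl it was 4.56 to 133 CPM in TV (median 29.2) and 0.937 to 20.8 CPM in MV (median 7.51), against 0 to 0.376 CPM in PV (median 0.0583), 0 to 6.25 CPM in AoV (median 0.779) and 0 to 0.645 CPM in Ao (median 0.0635). The PV Ctrl libraries all lay below every TV and MV Ctrl library, as 4.43% and 21.8% of all genes did in either direction. The difference was 8.41 between TV and PV (SE 1.13, adjusted p 5.9e-06) and -6.13 between PV and MV (SE 1.08, adjusted p 0.000276), the only one of the 7 genes called between PV and MV, where 19.0% of all genes were called lower in PV and 22.2% in either direction. On plate 2 alone these were 8.89 and -8.06, not called. TV and MV differed by 2.28 (SE 0.84, adjusted p 0.103), which did not pass. The PV Ctrl libraries with 3416 and 4332 CPM of MYH7 had at most 0.376 CPM of NPPA.

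Of 4 other genes of atrial muscle, 3 were called higher in TV than in PV and 2 lower in PV than in MV, where 8.91% and 19.0% of all genes were. MYL4, the atrial essential light chain of myosin, had Ctrl medians of 730 CPM in TV, 55.4 in MV, 4.52 in AoV, 0.951 in PV and 0.384 in Ao. It differed by 9.79 between TV and PV (SE 0.90, adjusted p 4.8e-09) and by -6.62 between PV and MV (SE 0.81, adjusted p 1.4e-06). KCNJ3, a potassium channel subunit of atrial and pacemaker cells, differed by 9.05 (SE 1.08) and -5.43 (SE 1.08). MYBPHL, a relative of myosin binding protein H, differed by 5.30 (SE 0.63), called, and -1.43 (SE 0.58), not called. KCNA5, an atrial potassium channel, differed by 0.33 (SE 0.32) and -0.38 (SE 0.33), neither called. MYL2, the ventricular regulatory light chain, had Ctrl medians of 806 CPM in TV, 57.4 in AoV, 37.7 in MV, 18.4 in PV and 0.762 in Ao, and PV and MV differed by 1.24, which was not called. The ratio of NPPA to MYH7 within a library had, over all treatments, a median on the log2 scale of -4.90 in MV and -8.01 in TV (-7.96 without the library of rabbit L09686). It is not given for Ao, PV and AoV, where NPPA had at most 3 counts in 19, 19 and 14 of 27 libraries.

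**Figure D3:**
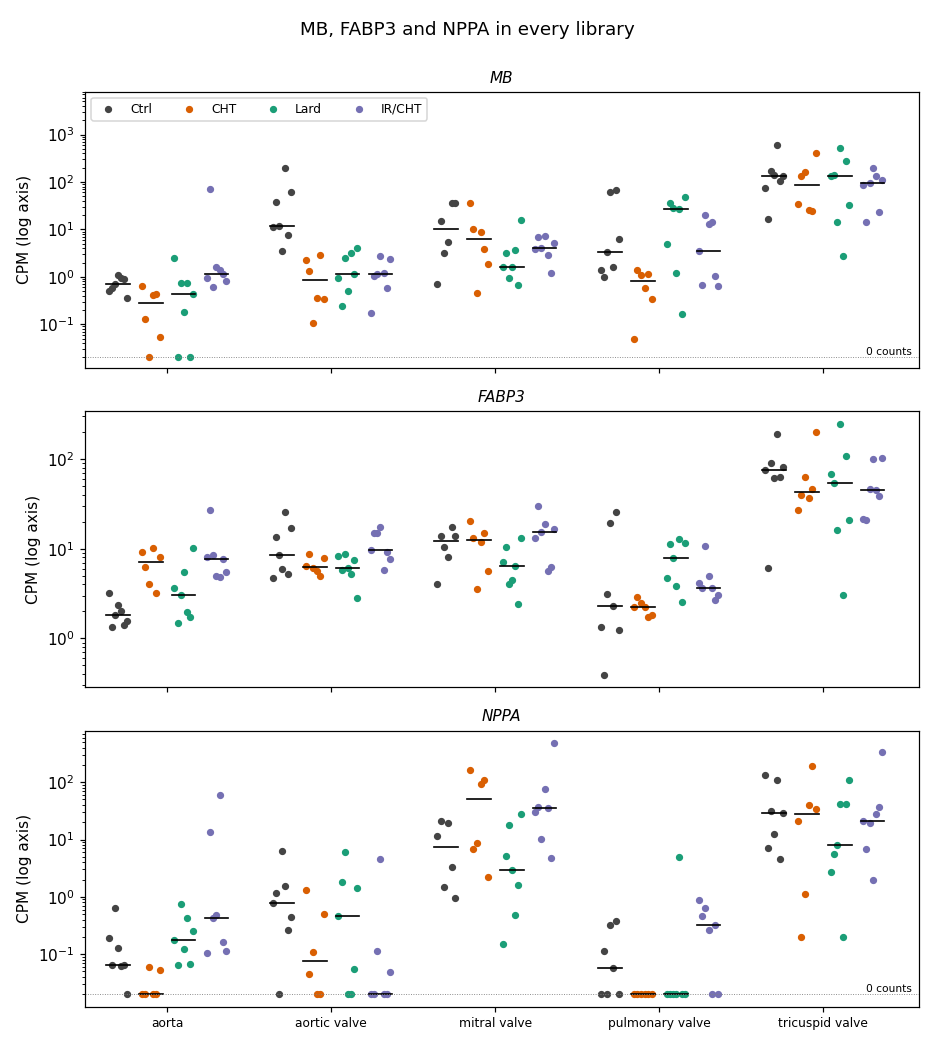
MB, FABP3 and NPPA in each library, in CPM on a log axis, by tissue and treatment, with libraries of 0 counts drawn on the dotted line and the median of each group as a bar. NPPA has Ctrl medians of 29.2 CPM in the tricuspid and 7.51 CPM in the mitral valve, and 0.0583 CPM in the pulmonary valve.

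In the aortic valve, the tissue in which the genes were chosen, the Ctrl libraries were high and spread. MB was 3.46 to 198.3 CPM in Ctrl (median 11.7), 0.109 to 2.96 in CHT (median 0.845), 0.247 to 4.08 in Lard (median 1.16) and 0.177 to 2.71 in IR/CHT (median 1.14). TNNC1 was 10.9 to 287 CPM in Ctrl (median 38.8), 0.508 to 6.38 in CHT (median 2.78), 1.11 to 12.4 in Lard (median 4.23) and 1.35 to 10.7 in IR/CHT (median 2.69). For MB, CKM and TNNC1 every CHT and every IR/CHT library lay below every Ctrl library, a separation that 5.45% and 20.8% of all genes showed in those comparisons, in either direction. Against Lard the groups were separate for CKM and ACTN2 (0.0974% of all genes), and MB and TNNC1 overlapped by 1 Lard library each.

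The fitted log2 fold changes for CHT, Lard and IR/CHT against the shared Ctrl libraries were -5.29 (SE 0.96), -4.75 (SE 0.87) and -5.18 (SE 0.89) for MB, and -4.98 (SE 0.86), -4.09 (SE 0.76) and -4.43 (SE 0.78) for CKM. For TNNC1 they were -4.68 (SE 0.84), -3.83 (SE 0.75) and -4.26 (SE 0.77), for ACTN2 -3.43 (SE 0.67), -3.55 (SE 0.63) and -2.94 (SE 0.62), and for MYH7 -4.70 (SE 1.20), -5.05 (SE 1.14) and -5.34 (SE 1.16). FABP3 moved little, at -0.79 (SE 0.35), -0.87 (SE 0.34) and -0.03 (SE 0.33), and NPPA stood at -2.17 (SE 1.47), -0.10 (SE 1.30) and -1.16 (SE 1.34). Of the 7 genes, 5 met the call rule for CHT and IR/CHT and 4 for Lard, where 11.9%, 42.8% and 0.234% of all genes met it, and since these contrasts chose the genes, nothing is read from the counts. IR/CHT against CHT gave differences of -0.64 to 1.02, where 19.7% of all genes met the rule.

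The Ctrl aortic valve, whose high libraries took part in the choice, is set beside the other tissues as a description. Against Ao it met the rule for 5 genes (49.6% of all genes did), with MYH7 at 7.34 (SE 1.38), MB at 6.02 (SE 1.17) and ACTN2 at 3.37 (SE 0.86). Between MV and AoV none of the 7 met it in edgeR (DESeq2 called 1, and 2.75% of all genes met it), with NPPA at 2.67 (SE 0.85). There 1 of the 7 had an unadjusted p under 0.05, as 4739 of 15372 genes did. PV stood below AoV for NPPA, at -3.46 (SE 1.05), and at -2.36 without AoV Ctrl replicate L198 (48.2% of all genes met the rule). TV met it for 5 genes (38.2% of all genes), with NPPA at 4.95 (SE 0.91) and ACTN2 at 3.09 (SE 0.84).

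The plate moved with these differences. The AoV Ctrl libraries on plate 1 had MYH7 of 113 to 619 CPM (n = 3) and those on plate 2 of 150 to 10012 CPM (n = 4), and the CHT libraries were all on plate 1. Within plate 1 alone the CHT difference was -1.95 for MYH7, -1.48 for ACTN2, -2.83 for MB, -3.02 for TNNC1 and -3.35 for CKM. With plate as a covariate they were -2.84, -2.60, -3.65, -3.70 and -3.96. For IR/CHT the MYH7 difference was -2.42 within plate 1 and -6.39 within plate 2, and that of ACTN2 was -1.13 and -3.40. The count of genes that met the rule for Lard was 0 when AoV Lard replicate L173, L152, L232, L190 or L269 or AoV Ctrl replicate L240 or L277 was left out, with fold changes of the same sign.

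Other muscle genes of the aortic valve are described in the same contrasts that chose the 7, so nothing is read from their counts. Of 20 other sarcomere genes tested, 16 met the rule as lower in CHT, 8 in Lard and 16 in IR/CHT, and none as higher, where 3.48%, 0.208% and 21.7% of all genes met it as lower. Their median log2 fold changes were -3.39, -4.01 and -3.36, against -0.02, -0.03 and -0.06 over all genes. MYL3, a ventricular light chain, stood at -4.90, -4.45 and -5.62, and MYBPC3, the cardiac myosin binding protein, at -4.94, -4.94 and -4.25. Of 12 genes of muscle energy metabolism, 7, 4 and 7 were lower, among them PGAM2, the muscle phosphoglycerate mutase, at -4.03, -3.38 and -4.04. CD36, a fatty acid transporter that macrophages also carry, went the other way in IR/CHT, at 5.38 (SE 0.64). The summed CPM of 7 macrophage markers was 163 to 550 in Ctrl, 645 to 874 in CHT, 113 to 656 in Lard and 1489 to 1945 in IR/CHT, and its part in the results was not tested.

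**Figure D4:**
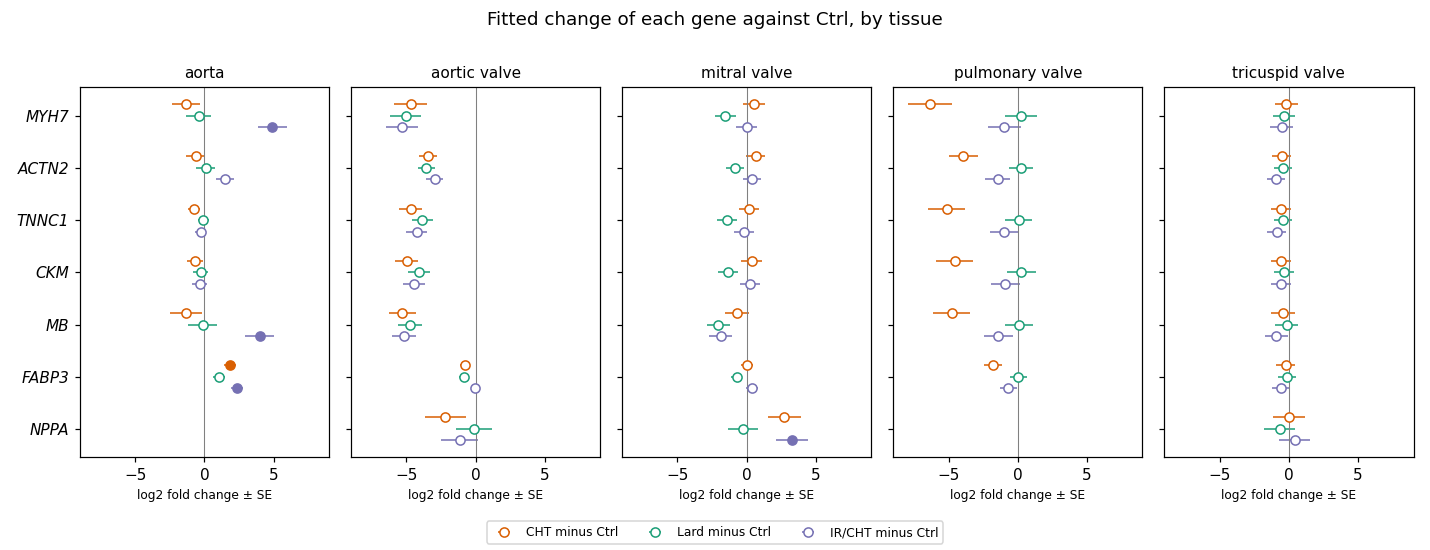
Fitted log2 fold change of each gene against Ctrl, with its standard error, in each tissue for CHT, Lard and IR/CHT (horizontal axis). Filled points passed the call rule, aortic valve points are always hollow because they chose the genes, and NPPA was too low to be fitted in the aorta and pulmonary valve. In the aortic valve 5 genes stand between -5.34 and -2.94, and in the tricuspid valve no point goes beyond -0.91.

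In the aorta FABP3 rose in both groups fed cholesterol. It was 1.33 to 3.20 CPM in Ctrl (median 1.81), 3.24 to 10.2 in CHT (median 7.19), 1.48 to 10.2 in Lard (median 3.02) and 4.85 to 27.2 in IR/CHT (median 7.71). All 6 CHT and all 7 IR/CHT libraries lay above every Ctrl library, while Lard overlapped Ctrl (10.1% and 19.5% of all genes were separate for CHT and IR/CHT). The log2 fold change was 1.83 in CHT (SE 0.45, adjusted p 0.00323) and 2.34 in IR/CHT (SE 0.45, adjusted p 0.000107), with edgeR, and both held in every fit that left out 1 library. In Lard it was 1.03 (SE 0.44, adjusted p 0.241). Of the 6 genes tested, FABP3 alone was called for CHT, where 14.2% of all genes rose and 19.4% changed in either direction, a share near that of the 6. With group means subtracted, FABP3 had a Pearson r across the 27 aortas of 0.55 with MB, 0.48 with ACTN2, 0.40 with MYH7, 0.10 with CKM and 0.05 with TNNC1, and the genes most like it there were SPHK1 (0.82), CD68, a lysosomal protein of macrophages (0.80), FTL, the ferritin light chain (0.80), LLGL2 (0.80) and HK3 (0.80). What part macrophages had in the FABP3 difference was not tested. For Lard none was called by edgeR or DESeq2 (2.61% of all genes). An unadjusted p under 0.05 was found for 1 of the 6, and for 2333 of 14777 genes.

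MYH7 in the aorta was 1.84 to 33.8 CPM in Ctrl, 1.69 to 13.4 in CHT (median 3.32), 2.24 to 26.5 in Lard (median 8.95) and 16.3 to 2325 in IR/CHT (median 50.6). In all, 5 of the 7 IR/CHT libraries lay above every Ctrl library and all 7 above every CHT library (0.92% of all genes). It was higher in IR/CHT by 4.91 against Ctrl (SE 1.05, adjusted p 0.000377), where FABP3, MB and MYH7 made 3 calls of the 6 genes and 22.2% of all genes were called higher, 34.3% in either direction. Without IR/CHT replicate L566, which held 2325 CPM, the difference was 2.55, still called.

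MB in the aorta was called higher in IR/CHT by 3.99 (SE 1.05, adjusted p 0.00267), from a Ctrl range of 0.353 to 1.09 CPM and an IR/CHT range of 0.608 to 71.2 CPM (median 1.13). This call rested on L566: without it the difference was 0.61 and was not called, and DESeq2 gave 0.54 and no call. In CHT aortas MB was 0 to 0.631 CPM (median 0.275), and 6 of the 27 aortas had at most 3 counts of it. Against CHT, IR/CHT was higher for MYH7 by 6.25 (SE 1.20, adjusted p 0.0204) and MB by 5.32 (SE 1.23, adjusted p 0.0386), where 0.162% of all genes were called higher and 0.596% in either direction. Neither was called without L566, at 3.89 and 1.94, nor without CHT replicate L560, at 6.18 and 5.18, nor in a fit of the 2 groups alone. MB was not called either without CHT replicate L561, L573 or L574 or IR/CHT replicate L565, at 5.07 to 5.53.

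L566, from rabbit L28389, was the highest of the IR/CHT aortas for 5 genes: 2325 CPM of MYH7, 135 of ACTN2, 89.2 of CKM, 71.2 of MB and 27.2 of FABP3. Its NPPA was 13.5 CPM, second to L580 of rabbit L28223 with 60.7 CPM, and the other 5 IR/CHT aortas had 0.105 to 0.491 CPM. In L580, MYH7 was 277.3 CPM and MB 1.401 CPM. TNNC1 was 75.0 CPM in L566, within the Ctrl range. L566 also stood apart on genes that do not follow the 7: it was nearest to Ao but farther from it (5.84, in the units above) than the other 26 aortas (at most 3.56), and at 8.402 it was the aorta nearest to AoV. What part this had in its values was not tested. The fitted changes of TNNC1 and CKM in IR/CHT were -0.26 (SE 0.40) and -0.34 (SE 0.54), neither called. ACTN2 was at 1.48 (SE 0.67, adjusted p 0.0676).

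Of 15 other sarcomere genes tested in the aorta, 8 were higher and 3 lower in IR/CHT than in Ctrl, where 22.2% of all genes were higher and 12.2% lower, with a median of 2.33 against 0.00 over all genes. ANKRD1, a titin-binding cardiac ankyrin repeat protein, was higher by 9.35 (SE 0.87) in IR/CHT and by 8.17 (SE 0.86) in CHT. MYOM1, NEXN and TMOD1, proteins of the M-band, the Z-disc and the thin filament end, were lower in IR/CHT by -1.73 (SE 0.23), -1.66 (SE 0.24) and -1.23 (SE 0.22). All 6 smooth muscle markers were lower in IR/CHT, ACTA2 by -1.64 (SE 0.26) and MYH11 by -1.54 (SE 0.26). In CHT 3 of the 6 were lower, where 5.18% of all genes were called lower. Their summed CPM was 84442 to 118809 in Ctrl, 33215 to 84247 in CHT, 54419 to 109092 in Lard and 11808 to 63092 in IR/CHT, and that of the macrophage markers 57.8 to 244.4 in Ctrl, 344 to 820 in CHT, 165.9 to 403 in Lard and 500 to 1610 in IR/CHT. What part they had in the aortic results was not tested.

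In the pulmonary valve the libraries of Ctrl, Lard and IR/CHT ranged from low to high levels, while those of CHT did not. MYH7 was 17.6 to 4332 CPM in Ctrl (median 147), 5.49 to 28.8 in CHT (median 13.99), 9.08 to 2855 in Lard (median 1502) and 41.8 to 1446 in IR/CHT (median 339). All 6 CHT libraries were low, 2 of 7 Ctrl, 4 of 7 Lard and 3 of 7 IR/CHT libraries were above 1000 CPM. Without the library labelled PV of rabbit L09686, 3 of the 6 Lard libraries were above 1000 CPM and the Lard median was 1219. TNNC1 showed a like pattern, from 2.73 to 160 CPM in Ctrl, 0.462 to 2.41 in CHT, 1.06 to 123 in Lard and 2.65 to 50.01 in IR/CHT.

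The CHT differences in PV were below 0 for all 6 genes tested and did not pass in edgeR, where 0.159% of all genes were called. MYH7 was at -6.32 (SE 1.58, adjusted p 0.117), TNNC1 at -5.14 (SE 1.32, adjusted p 0.137), MB at -4.77 (SE 1.34, adjusted p 0.189), CKM at -4.56 (SE 1.33, adjusted p 0.222), ACTN2 at -3.94 (SE 1.06, adjusted p 0.171) and FABP3 at -1.80 (SE 0.67, adjusted p 0.357). None of the 6 genes tested was called, and DESeq2 called all 6. All 6 had an unadjusted p under 0.05, as 1441 of 14450 genes did. The CHT libraries lay below every Ctrl library for TNNC1 and ACTN2, a separation that 0.699% of all genes showed. Of 20 other sarcomere genes, none was called in edgeR, with a median of -5.16 against 0.00 over all genes.

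For IR/CHT against CHT in PV, MYH7 was at 5.36 (SE 1.51, adjusted p 0.0856) and TNNC1 at 4.15 (SE 1.27, adjusted p 0.1002), with every IR/CHT library above every CHT library for both (0.99% of all genes). Neither passed, DESeq2 called 4, and edgeR called 0.0761% of all genes. An unadjusted p under 0.05 was found for 5 of the 6 genes, and for 3539 of 14450 genes. Smooth muscle markers stood on the same side in this comparison, MYH11 at 5.17 (SE 1.21), ACTG2 at 3.46 (SE 0.81) and SMTN at 1.84 (SE 0.46), each with an adjusted p of 0.0712 and not called. The summed CPM of the smooth muscle markers was 694 to 1368 in CHT and 988 to 21299 in IR/CHT, and their part in the result was not tested. On genes that do not follow the heart muscle genes, IR/CHT replicate L176 was the PV library farthest from PV (4.06, in the units above). It was also the PV library nearest to Ao (11.96). Replicate L275 of the same group was nearer to AoV (1.46) than to PV (3.20). With 1 library left out in turn, none of the 6 genes was called. What part L176 and L275 had in the sizes of these differences was not tested. Lard and IR/CHT against Ctrl gave differences of 0.03 to 0.26 and of -1.44 to -0.70, none called by edgeR or DESeq2 (0.0% and 0.706% of all genes). None had an unadjusted p under 0.05, where 360 and 2207 of 14450 genes did. Without the library labelled PV of rabbit L09686 the Lard differences were -0.33 to 0.19, with no call. NPPA had 0 counts in all 6 CHT libraries and in the 6 Lard libraries other than that 1, which held 5.03 CPM.

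In the mitral valve 1 of the 7 genes, NPPA, was called, in IR/CHT against Ctrl. NPPA was 0.937 to 20.8 CPM in Ctrl (median 7.51), 2.22 to 164 in CHT (median 51.02), 0.148 to 27.3 in Lard (median 2.95) and 4.68 to 481 in IR/CHT (median 35.9). In IR/CHT 5 of 7 libraries and in CHT 3 of 6 lay above every Ctrl library. The difference was 3.27 in IR/CHT (SE 1.19, adjusted p 0.0422), 1 call of 7 genes where 11.1% of all genes rose and 17.7% changed in either direction, a share near that of the 7. It was 2.71 in CHT (SE 1.18, adjusted p 0.212) and -0.29 in Lard (SE 1.09).

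The NPPA call was not stable. It was lost without MV Ctrl replicate L199, L156, L262 or L278 or IR/CHT replicate L237 or L548, where it was 1.72 to 3.36, and without the filter on low counts, at 3.33. With plate as a covariate the difference was 2.96, and within plates 1 and 2 it was 2.24 and 3.96, none called. MYH7 in MV was 105 to 1460 CPM in Ctrl, 143 to 2939 in CHT, 30.0 to 937 in Lard and 158.1 to 1592 in IR/CHT, and the groups overlapped. No other gene was called in MV by either tool: MB was at -1.88 in IR/CHT (SE 0.83, adjusted p 0.0955) and -2.06 in Lard (SE 0.83), and the CHT differences of the other 6 genes were -0.71 to 0.65. In CHT and in Lard 1 of 7 genes had an unadjusted p under 0.05, as 2685 and 253 of 15322 genes did, and 5.62% and 0.0% of all genes were called. For IR/CHT against CHT the differences were -1.17 to 0.57, with none called by either tool (0.189% of all genes). None had an unadjusted p under 0.05, where 2007 of 15322 genes did.

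In the tricuspid valve no treatment difference passed. It had the highest median of the 5 tissues in each treatment for the genes other than NPPA, whose median was higher in MV in CHT (51.02 against 27.9 CPM) and in IR/CHT (35.9 against 21.1 CPM). MYH7 was 390 to 29861 CPM in Ctrl (median 6348), 1763 to 26055 in CHT (median 5339), 79.9 to 23543 in Lard (median 5654) and 998 to 18068 in IR/CHT (median 4769), so that all groups overlapped. Over the 7 genes the differences from Ctrl were -0.58 to 0.01 in CHT, -0.67 to -0.13 in Lard and -0.91 to 0.41 in IR/CHT, and IR/CHT and CHT differed by -0.47 to 0.40, with SE of 0.64 to 1.17. None was called by edgeR or DESeq2, where 0.163%, 0.0%, 0.231% and 0.0% of all genes were called. None had an unadjusted p under 0.05, where 1109, 1200, 1198 and 1323 of 14700 genes did. The lowest Lard value of all 7 genes came from the library labelled TV of rabbit L09686: without it the Lard range began at 1904 CPM for MYH7, 287 for ACTN2 and 2.67 for NPPA in place of 79.9, 9.504 and 0.201, and still no gene was called, with differences of -0.45 to 0.09. Without the library labelled TV Ctrl L168 none was called either.

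After group means were subtracted, MB, CKM, TNNC1, ACTN2 and MYH7 were correlated across libraries in each valve, with a median Pearson r over the 10 pairs of 0.83 in AoV (n = 27), 0.93 in MV (n = 26), 0.95 in PV (n = 27) and 0.93 in TV (n = 27), but of 0.39 in Ao (n = 27). The pairs of NPPA with the other 6 had medians of 0.69 in MV and 0.41 in TV, and are not given for the tissues in which NPPA had at most 3 counts in most libraries. Without the pair of rabbit L09686 the median in TV was 0.20 for NPPA and 0.88 for the 5 genes, and 0.95 for the 5 in PV. The points share their library, and these values carry no p.

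The ratio of TNNC1 to MYH7 within a library set the aorta apart. Its median on the log2 scale was 2.73 in Ao (range -4.95 to 6.20), where L566 was the lowest, and -3.46 in AoV, -3.67 in MV, -3.94 in PV and -4.11 in TV, where no library exceeded -1.89. CKM to MYH7 was at 1.53 in Ao and -3.89 to -5.29 in the valves. FABP3 to MYH7 had medians of -1.69 in Ao and -3.22 in AoV, against -5.50 in MV, -5.52 in PV and -6.68 in TV. Without the pair of rabbit L09686 the medians in PV and TV were -4.07 and -4.11 for TNNC1, -5.31 and -5.05 for CKM, and -5.10 and -6.69 for FABP3. The medians of TNNC1 in Ao Ctrl and TV Ctrl, 80.1 and 473 CPM, thus differed far less than those of MYH7, 8.51 and 6348 CPM.

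**Figure D5:**
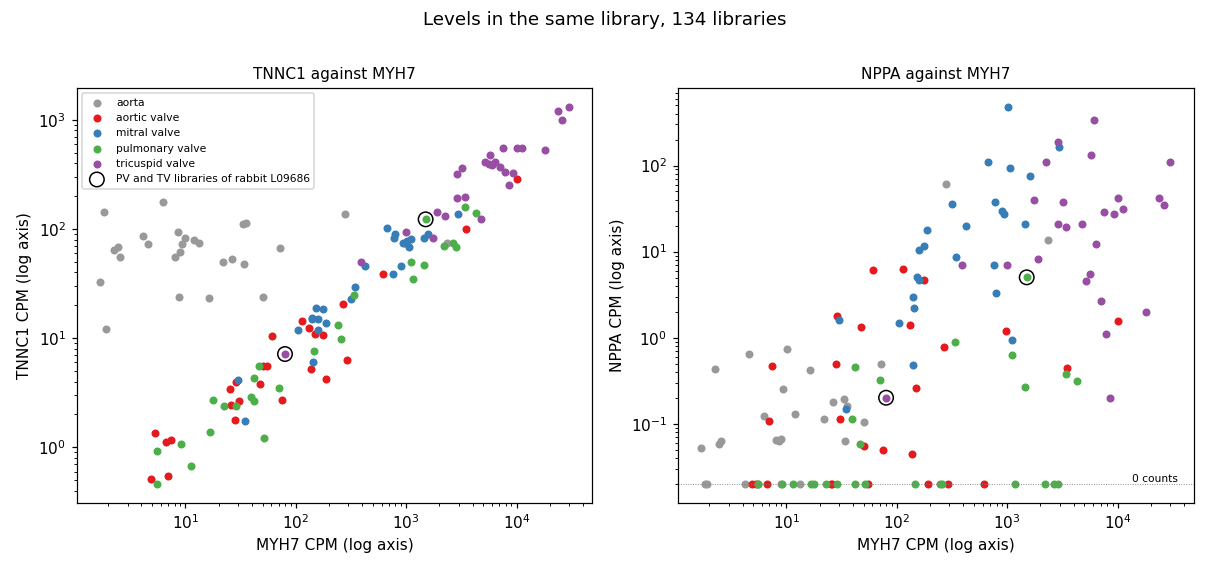
TNNC1 (left) and NPPA (right) against MYH7 in the same library, in CPM on log axes, for each library, coloured by tissue. In the valves TNNC1 tracks MYH7, in the aorta it does not, and the pulmonary valve libraries with high MYH7 have little NPPA. The circles mark the libraries labelled PV and TV of rabbit L09686.

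The spread within a group differed between tissues. The within-group SD of log2 CPM for MYH7 was 2.64 in PV, where the median gene had 0.392 and 23 of 14450 genes had a larger one, 2.05 in AoV (53 of 15408 larger) and 1.92 in TV (80 of 14700). Without the pair of rabbit L09686 it was 2.67 in PV, with 0.131% of genes larger in place of 0.159%, and 1.53 in TV, with 1.26% larger in place of 0.544%. NPPA reached 2.65 in TV, with 18 genes larger (2.46 and 23 without the pair), and 2.27 in MV, with 29 larger. FABP3 had an SD of 1.21 in PV (438 of 14450 larger) and of 1.48 in TV (325 of 14700 larger, and 601 without the pair, at 1.27). Its SD was 0.64 in AoV, where the median gene had 0.57 and 6612 genes were larger, 0.76 in Ao (3290 of 14776 larger) and 0.84 in MV (2472 of 15322 larger). TNNC1 had an SD of 0.84 in Ao (2572 larger). The 7 genes took 0.0615% to 2.62% of the counts in TV Ctrl, 0.0169% to 1.01% in AoV Ctrl and 0.00969% to 0.0158% in Ao Ctrl.

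Over all libraries the genes most like the 7 were other genes of striated muscle. By mean Pearson r, among 11243 genes with a symbol, they were CKMT2, the mitochondrial creatine kinase (0.80), MYOM2, a myomesin of the sarcomere's M-band (0.78), ACTC1, the cardiac actin (0.78), UNC45B, a myosin chaperone (0.78), FBXO40, a muscle F-box protein (0.77), TECRL (0.77), MYPN, a Z-disc protein (0.77), PPP1R3A, a glycogen-binding phosphatase subunit of muscle (0.77), LDB3, a Z-disc protein (0.77), and MYBPC3 (0.77). Within a tissue this was not always so: beside FABP3 in Ao, the genes most like TNNC1 in Ao were GLYAT (0.65), MYOZ2, a Z-disc protein (0.64), SOST (0.63), TFAP2B (0.62) and RFX3 (0.60), and those most like NPPA in PV were led by ABCC8 (0.82) and ZNF683 (0.80), where NPPA had at most 3 counts in 19 of 27 libraries. Fast skeletal muscle genes were scarce. The summed CPM of the 6 found was 0.132 to 12.5 in Ctrl libraries of the 5 tissues and reached 31.2 in 1 MV CHT library.

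Across rabbits, 28 relations between the levels of a gene in 2 tissues were computed with the treatment means removed (7 genes over 4 pairs of tissues), and none passed a permutation test after adjustment (smallest adjusted p 0.459 for Pearson's r and 0.389 for Spearman's rho). NPPA in MV and TV had the highest r, 0.52 over 26 rabbits (permutation p 0.017), with a rho of 0.50 (permutation p 0.0192). The r was 0.47 and the rho 0.48 over 25 rabbits without L09686. The r was 0.43 without the 2 rabbits farthest from the median in MV, 0.57 over the 15 rabbits with both libraries on plate 1 and 0.73 over the 7 with both on plate 2.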

How the data were processed

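RNA of 134 tissue pieces from 27 male New Zealand White rabbits was sequenced from stranded total RNA libraries (SMARTer Pico). The deposited values were raw counts per gene, which the authors made by demultiplexing with bcl2fastq 2.20 (from the submitters' processing notes), alignment and gene counting, with no normalization. The genes followed and the gene lists were chosen with earlier results of these data known, and the rabbit identity of each library came from the labels.

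After edgeR's filterByExpr removed genes with low counts, TMM scaling factors were computed and edgeR 4.0.16 (R 4.3.3) ran its quasi-likelihood test, within each tissue over the 4 treatments and over Ctrl libraries of the 5 tissues. A call needed a Benjamini-Hochberg adjusted p under 0.05 over all genes tested and a fold above 1.5. Standard errors are the log2 fold change over the root of the F statistic. CPM used TMM over all 134 libraries, and log2 CPM a prior count of 2. Recovery of known changes was tested on simulated data. DESeq2 1.42.0 was an alternative, and the shares of all genes called that are printed beside counts are those of edgeR, not of DESeq2. Named genes were the 7, up to 3 called genes of each list with the smallest p, and the 10 genes most like the 7. Others were named after their values were seen. 1 gene of the atrial list is not reported here. Same-rabbit libraries of 2 tissues had median correlations of 0.175 to 0.439 with group means removed, and libraries of other rabbits of -0.0143 to 0.00712, so the rabbit was used as a block in an alternative. The highest correlation between 2 libraries was 0.9801.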

Additional observations from a re-analysis of the deposited data

Results flagged for a closer look

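In groups of 6 or 7 libraries, 139 sets of values were tested for a library far from the rest, and 14 had one. Chance gives about 1 in 20 such sets. These values are given without an explanation.

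In the aorta of IR/CHT rabbits, replicate L566 was far above the others for 3 genes. It held 71.2 CPM of MB, where the next library had 1.59, 135 CPM of ACTN2, where the next had 14.2, and 27.2 CPM of FABP3, where the next had 8.46.

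The library labelled TV Ctrl replicate L168 was far below the others for 4 genes. It held 390 CPM of MYH7 where the next library had 5210, 31.7 CPM of ACTN2 where the next had 603, 49.8 CPM of TNNC1 where the next had 408, and 6.12 CPM of FABP3 where the next had 61.8.

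Both libraries of rabbit L09686 stood apart once. The library labelled TV Lard held 9.504 CPM of ACTN2, the lowest of its group, and the library labelled PV Lard held 5.03 CPM of NPPA, where the other 6 had 0.

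The remaining libraries were apart for 1 gene each. ACTN2 was 1376 CPM in TV CHT replicate L268, and NPPA was 4.62 CPM in AoV IR/CHT replicate L236. In the aorta, CKM was 9.19 CPM in Ctrl replicate L571 and 6.38 CPM in Lard replicate L563, and TNNC1 was 176.96 CPM in Lard replicate L575.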

How the results depend on the processing

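Counts of called genes were recomputed under each alternative, and 64 of them moved by more than 1.5 times. The causes were not tested, apart from the fewer libraries in fits of 2 groups or of 1 plate. With DESeq2 the count was 6 for PV CHT against Ctrl, 4 for PV IR/CHT against CHT and 1 for MV against AoV. With only the 2 groups compared it was 0 for Ao IR/CHT against CHT and for AoV Lard. On plate 1 alone it was 2 for AoV CHT, 3 for AoV IR/CHT, and 0 for AoV Lard and MV IR/CHT. On plate 2 alone it was 0 for AoV Lard, MV IR/CHT, PV against AoV, PV against MV, TV against AoV, TV against MV and TV against PV. Without the filter on low counts it was 2 for TV against MV and 0 for MV IR/CHT, which was also 0 with plate as a covariate.

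The tissue comparisons also changed when another treatment took the place of Ctrl. With CHT the count was 3 for AoV against Ao, 5 for MV against AoV, 2 for PV against AoV and 7 for PV against MV. With Lard it was 3 for AoV against Ao, 2 for MV against Ao, 5 for PV against AoV, 3 for PV against MV and 3 for TV against PV. Without the PV and TV libraries of rabbit L09686, which was decided on after the data had been seen, the Lard counts were 3 for AoV against Ao, 6 for PV against AoV and 3 for PV against MV. With IR/CHT it was 0 for MV against Ao, 2 for PV against Ao, 5 for MV against AoV, 5 for PV against AoV and 3 for PV against MV. In 13 fits a called log2 fold change turned negative, all against Ao. For AoV these were ACTN2 at -0.21 in Lard (-0.21 without rabbit L09686) and -1.02 in IR/CHT, FABP3 at -0.049 in CHT, and MB at -3.12, MYH7 at -2.89 and NPPA at -4.03 in IR/CHT. For MV it was MB at -1.31 in IR/CHT. For PV these were ACTN2 at -0.21 and FABP3 at -1.57 in CHT, FABP3 at -0.96 and MB at -0.49 in IR/CHT, and FABP3 at -0.12 on plate 2 alone. The Ao IR/CHT group held L566, with 71.2 CPM of MB and 2325 of MYH7, where the group medians were 1.13 and 50.6. It also held L580, with 60.7 CPM of NPPA, where the median was 0.426. What part these libraries had in the IR/CHT reversals was not tested.

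With 1 library left out, counts ran from 0 to 2 for Ao IR/CHT against CHT, 2 to 4 for Ao IR/CHT, 0 to 5 for AoV Lard, 0 to 1 for MV against AoV, 0 to 2 for PV against AoV, 2 to 7 for TV against MV and 0 to 1 for MV IR/CHT. MV against AoV was 1 without AoV Ctrl replicate L198 or MV Ctrl replicate L262, and PV against AoV was 0 without L198 and 2 without PV Ctrl replicate L263. With the rabbit as a replicate block, PV against Ao gave 3 calls in place of 4 and no other count of calls between tissues changed. NPPA was left out of the Ao and PV treatment fits by the filter on low counts and so was not tested there.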
